A study of Mus musculus with 2 samples.

Results

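The vesicular glutamate transporters Slc17a6, Slc17a7 and Slc17a8 were followed through 2 mouse brain libraries made by Slide-tags, a method in which nuclei in an intact tissue section are tagged with barcoded oligonucleotides of known position before single-nucleus RNA sequencing. The members were chosen by name, and all 3 genes were found among the 32285 genes of each library. One library came from the hippocampus of an adult male C57BL/6J mouse aged 56 days, and the other from the brain of a C57BL/6J embryo at embryonic day 14 (E14), bought from a supplier. The labels and methods name no transgene and no treatment for either animal. There was 1 library per tissue, so no difference between tissues or classes could be tested over animals and age cannot be told apart from animal, tissue, library and software version.

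Vesicular glutamate transporters load glutamate into synaptic vesicles, driven by the proton gradient across the vesicle membrane, and a neuron that has 1 of them can use glutamate as its transmitter. Slc17a7 encodes VGLUT1, the main form in neurons of the adult cerebral cortex and hippocampus. Slc17a6 encodes VGLUT2, the main form in the thalamus, hypothalamus and brainstem and in much of the embryonic brain. Slc17a8 encodes VGLUT3, found in scattered neurons whose main transmitter is often GABA, serotonin or acetylcholine.

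The genes lie on different stretches of the mouse genome (GRCm38, the release that mm10 names, with GENCODE vM21 gene models). Slc17a7 (ENSMUSG00000070570) spans chr7:45163949-45176142 on the plus strand, is 12.2 kb long and has up to 13 exons in a transcript. Slc17a6 (ENSMUSG00000030500) lies further along the same chromosome at chr7:51622006-51671119, also on the plus strand, and is 49.1 kb long with up to 12 exons. Slc17a8 (ENSMUSG00000019935) spans chr10:89574020-89621253 on the minus strand, 47.2 kb with up to 12 exons. Because reads from introns were counted, a longer gene can collect more counts, so levels are compared below within 1 gene across classes and never between the 3 genes.

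The 250 bases before the first RefSeq start of each gene (GRCm38.p6, strand of the gene) are shown because the genes were read in different classes of nuclei and these windows show what the promoters share. Capitals mark the 15-base run that the Slc17a6 and Slc17a8 windows share at 14 positions, TGGTTTCNATAGCAT.
Slc17a6, chr7:51621580-51621829: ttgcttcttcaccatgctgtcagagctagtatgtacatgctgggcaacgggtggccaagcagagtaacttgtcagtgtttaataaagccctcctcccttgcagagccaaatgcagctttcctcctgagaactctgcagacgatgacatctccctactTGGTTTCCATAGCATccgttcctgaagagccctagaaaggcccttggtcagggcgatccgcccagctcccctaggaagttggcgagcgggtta
Slc17a7, chr7:45163671-45163920: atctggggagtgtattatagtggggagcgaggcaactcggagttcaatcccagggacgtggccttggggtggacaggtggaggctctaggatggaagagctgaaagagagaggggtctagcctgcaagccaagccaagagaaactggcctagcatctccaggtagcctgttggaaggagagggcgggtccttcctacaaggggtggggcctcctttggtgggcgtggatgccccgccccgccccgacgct
Slc17a8, chr10:89621250-89621499: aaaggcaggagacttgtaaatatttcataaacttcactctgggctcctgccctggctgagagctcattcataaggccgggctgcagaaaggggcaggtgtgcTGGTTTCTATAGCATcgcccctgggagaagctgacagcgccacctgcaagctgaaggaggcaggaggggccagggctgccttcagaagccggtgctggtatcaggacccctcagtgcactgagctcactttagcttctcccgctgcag
The run lay 93 to 79 bases before the start of Slc17a6 and 148 to 134 bases before that of Slc17a8. It was the best ungapped match of this length on the given strand between these windows. Searched on both strands, it was present in 2 of 32851 windows of the same length in the RefSeq table, 0.00609%, and these were the windows that defined it. The Slc17a7 window does not contain these letters. It was the richest in G and C, at 61.2% with 9 CpG pairs, against 53.2% and 7 for Slc17a6 and 57.2% and 5 for Slc17a8. The run was looked for after the sequences had been seen, and is a description of letters and not of a binding site.

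The adult library held 1661 barcodes, of which 1609 passed the filters with 15346746 UMIs (unique molecular identifiers, each a counted molecule) and a median of 6607 per nucleus. The E14 library held 9037 barcodes, of which 9036 passed with 58923882 UMIs and a median of 4204. The libraries shared 1 barcode sequence. Nuclei were put into classes by the UMIs of marker lists of 8 genes that hold none of the transporters, and a class is called "-like" for that reason. A class took in 79.1% of the adult nuclei and 50.6% of the E14 nuclei, leaving 337 and 4462 nuclei in none. The 5 adult excitatory classes each detected 6 to 8 of their own markers, and the 6 E14 classes of the excitatory lineage and its progenitors 5 to 8. No adult nucleus passed the habenular list and 4 passed the hilar mossy list.

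Levels are given as UMIs per 1000000 UMIs of a class (CPM), with exact 95% Poisson intervals, and shares of nuclei with exact 95% Clopper-Pearson intervals. Both cover counting error alone, not the spread between animals. Classes came from the same libraries as the levels, so differences between classes are descriptions without a p-value.

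In the adult hippocampus library Slc17a7 was detected in most nuclei of each hippocampal excitatory class with at least 20 nuclei, and in 2 of the 4 mossy-like nuclei. CA3-like nuclei had the highest level, 393 CPM (349 to 442, 38 nuclei). The 20 cortical or subicular-like nuclei followed at 324 CPM (266 to 391), then CA1-like nuclei at 251 CPM (234 to 268, 195 nuclei) and dentate granule-like nuclei at 244 CPM (229 to 260, 296 nuclei). The CA1-like and dentate granule-like levels could not be separated, with a ratio of 1.03 (0.94 to 1.13), whereas the CA3-like level was 1.57 times the CA1-like level (1.37 to 1.80). The ratio of CA3-like to cortical or subicular-like nuclei was 1.21 (0.97 to 1.53), an interval that includes no difference.

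In the classes with at least 20 nuclei, counts in single nuclei followed the order of the levels by their medians but not by the share of nuclei with a UMI. The median CA3-like nucleus held 8 Slc17a7 UMIs and the highest 18. The median was 6 with a highest of 16 in cortical or subicular-like nuclei, 4 with a highest of 16 in CA1-like nuclei, and 3 with a highest of 26 in dentate granule-like nuclei. At least 1 Slc17a7 UMI was found in 94.7% of CA3-like (82.3% to 99.4%), 92.3% of CA1-like (87.6% to 95.6%), 87.8% of dentate granule-like (83.6% to 91.3%) and 85.0% of cortical or subicular-like nuclei (62.1% to 96.8%). The median depth was 17444, 17058, 11448 and 16653 UMIs in these classes. When each nucleus was thinned to 1000 UMIs, the expected shares were 34.9%, 25.3%, 21.4% and 24.5%.

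**Figure D1:**
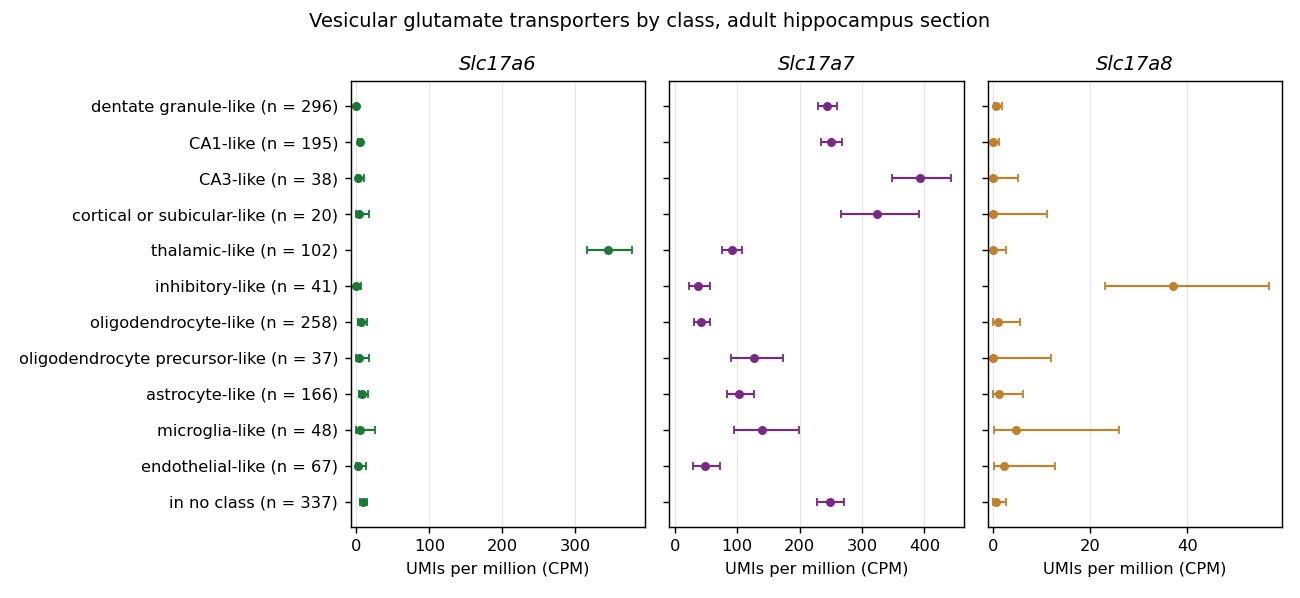
Level of each transporter in CPM (x axis, a separate linear scale per gene) in each adult class of at least 20 nuclei and in the nuclei of no class. Points are values over the summed UMIs of a class and bars are exact 95% Poisson intervals. Slc17a6 stood at 345 CPM in the thalamic-like class and under 10 CPM in every other row, and 21 of the 28 Slc17a8 UMIs fell in the inhibitory-like row.

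Slc17a7 also appeared in classes that should lack it. Inhibitory-like nuclei, which matched the excitatory classes in depth with a median of 12730 UMIs, held 37.1 CPM (23.0 to 56.7) and at least 1 UMI in 19.5% of 41 nuclei (8.8% to 34.9%). Of their 21 UMIs, 15 lay in the 3 droplets in which Malat1, an abundant nuclear RNA, made up under 1.5% of the UMIs. A single one of these droplets held 14 UMIs. The other 38 inhibitory-like nuclei held 11.0 CPM (4.02 to 23.8). The glial and vascular classes ranged from 42.0 CPM in oligodendrocyte-like nuclei to 139 CPM in microglia-like nuclei, at median depths of 2482 to 5776 UMIs. Among the 248 oligodendrocyte-like and the 118 astrocyte-like nuclei with at least 1.5% Malat1, the levels were 28.5 and 74.2 CPM. These values set the background against which the lower levels of Slc17a7 are read.

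Slc17a6 was concentrated in thalamic-like nuclei. The thalamus lies next to the hippocampus in the brain. These 102 nuclei held 497 of the library's 551 Slc17a6 UMIs, 90.2%, at 345 CPM (316 to 377). A nucleus of the class held 0 to 24 Slc17a6 UMIs with a median of 4, and 80.4% (71.4% to 87.6%) had at least 1. The dentate granule-like class held 0 Slc17a6 UMIs in 296 nuclei, which allows a share of up to 1.24% by the Clopper-Pearson limit and of up to 1.01% by a floor of 3 counts. The thalamic-like level was 469 times the level that 3 counts over the whole dentate granule-like class would give, and the lower limit of the ratio with 0 counts there was 380. Over all genes with at least 20 UMIs in these 2 classes, 12.9% were at least 4-fold apart.

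The remaining Slc17a6 UMIs of the adult library were few, and their source was not tested. CA1-like nuclei held 15 UMIs in 12 nuclei, 4.61 CPM (2.58 to 7.61), with at most 2 in a nucleus. Oligodendrocyte-like and astrocyte-like nuclei held 6.99 CPM (2.81 to 14.4) and 7.79 CPM (3.13 to 16.1), intervals that include the CA1-like level. Of the 7 oligodendrocyte-like UMIs, 5 lay in 1 nucleus. Dentate granule-like nuclei held 0, with an upper limit of 0.904 CPM, below the CA1-like interval. All 12 CA1-like nuclei with Slc17a6 also had Slc17a7 (73.5% to 100%), as did 91.8% (86.8% to 95.3%) of the 183 without Slc17a6. The median depth was 22204 UMIs with Slc17a6 against 16523 without. CA3-like nuclei held 2 UMIs, cortical or subicular-like nuclei 1 and inhibitory-like nuclei 0. Among nuclei of no class 13 had Slc17a6, with 19 UMIs and at most 3 in a nucleus. One of these also held at least 3 UMIs each of Reln and Trp73, which mark Cajal-Retzius neurons of the hippocampal fissure. It was singled out after its values were seen.

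Thalamic-like nuclei held Slc17a7 as well, at 91.0 CPM (76.1 to 108), below every hippocampal excitatory class. The CA1-like level was 2.75 times as high (2.29 to 3.34), and the dentate granule-like level 2.68 times (2.23 to 3.24), so Slc17a7 was not among the genes 4-fold apart. Against the classes that should lack it, the thalamic-like level was 2.45 times that of inhibitory-like nuclei (1.54 to 4.09) and 2.17 times that of oligodendrocyte-like nuclei (1.52 to 3.15). In these 2 classes 14 of 21 and 11 of 42 Slc17a7 UMIs lay in 1 droplet. The thalamic-like level was 0.88 times that of astrocyte-like nuclei (0.67 to 1.16), and lay below the 126 CPM of oligodendrocyte precursor-like and the 139 CPM of microglia-like nuclei. With at least 1.5% Malat1 the thalamic-like level was 87.3 CPM (72.3 to 104), against 108 CPM (73.8 to 152) in precursor-like and 109 CPM (67.3 to 166) in microglia-like nuclei. Glia were shallower, and per nucleus so filtered the thalamic-like class held 1.80 Slc17a7 UMIs, against 0.970 in precursor-like, 0.508 in astrocyte-like, 0.50 in microglia-like and 0.158 in inhibitory-like nuclei. The part of free RNA in the thalamic-like level was not tested.

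Most thalamic-like nuclei with Slc17a7 also held Slc17a6. Of the 102 nuclei, 53 had both (52.0%, 41.8% to 62.0%), 29 had Slc17a6 alone, 4 Slc17a7 alone and 16 neither. Slc17a7 was found in 64.6% (53.3% to 74.9%) of the nuclei with Slc17a6 and in 20.0% (5.73% to 43.7%) of the 20 nuclei without. Depth moved with this difference, since the median nucleus held 16686 UMIs with Slc17a6 and 733 without. Among the 51 nuclei deeper than the class median all had Slc17a6, and 76.5% (62.5% to 87.2%) had both. Of the 66 nuclei with at least 1.5% Malat1, 97.0% had Slc17a6, 69.7% (57.1% to 80.4%) had Slc17a7 and 68.2% (55.6% to 79.1%) had both. At 1000 UMIs per nucleus 5.32% would be expected to show both. Slc17a7 was also found in 30.1% of astrocyte-like nuclei (23.3% to 37.7%), at a median depth of 3845 UMIs, and 2 of these 166 nuclei held both genes. The part of free RNA in the thalamic-like co-detection was not tested.

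Within the thalamic-like class no difference between the sublists of thalamic subtypes exceeded counting error in level. The 47 nuclei leaning to Tnnt1 and Prkcd held 330 CPM of Slc17a6 (291 to 372) and 96.1 CPM of Slc17a7 (75.9 to 120). The 55 leaning to the calcium-binding protein genes Necab1, Calb2 and Calb1 held 365 CPM (319 to 415) and 84.5 CPM (63.5 to 110). The ratio of the Tnnt1 to the Necab1 side was 0.90 for Slc17a6 (0.75 to 1.08) and 1.14 for Slc17a7 (0.79 to 1.64), both including no difference. Co-detection was 63.8% (48.5% to 77.3%) on the Tnnt1 side and 41.8% (28.7% to 55.9%) on the other, at median depths of 16870 and 8633 UMIs.

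Slc17a8 was carried by 1 adult nucleus. It held 21 of the 28 Slc17a8 UMIs of the library, was inhibitory-like and had 21471 UMIs, which puts Slc17a8 at 978 CPM in this nucleus. The other 7 UMIs lay 1 each in 7 nuclei, among them 2 dentate granule-like, 1 astrocyte-like and 1 microglia-like, and the other 40 inhibitory-like nuclei held 0. The nucleus also held 66 UMIs of Cnr1, which encodes the cannabinoid receptor CB1, and 42 of Cck, which encodes cholecystokinin. Relative to depth these ranked 2 and 4 from the top among the 41 inhibitory-like nuclei. The GABA genes were present with 7 UMIs of Gad1, 6 of Gad2 and 7 of Slc32a1, the vesicular GABA transporter. Relative to depth Slc32a1 ranked 4, but Gad1 ranked 30 and Gad2 36 of 41, at 326 and 279 CPM against 571 and 715 CPM in the other inhibitory-like nuclei. Slc17a6 and Slc17a7 were at 0. The nucleus was described after its count had been seen, and a single nucleus gives no measure of how frequent such neurons were.

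The E14 library held 6914 UMIs of Slc17a6, 356 of Slc17a7 and 227 of Slc17a8. The 5 highest Slc17a6 levels among classes of 20 nuclei or more were those of the 4 excitatory neuron classes and of intermediate progenitor-like nuclei. Hypothalamic or subthalamic-like nuclei had 267 CPM (250 to 284, 393 nuclei), intermediate progenitor-like nuclei 227 CPM (205 to 252, 154 nuclei), Cajal-Retzius-like nuclei 224 CPM (205 to 244, 367 nuclei) and thalamic-like nuclei 221 CPM (205 to 238, 509 nuclei). The last 3 did not differ beyond counting error, with ratios of neighbours of 1.02 (0.89 to 1.16) and 1.01 (0.90 to 1.14). The hypothalamic level was 1.17 times the intermediate progenitor-like level (1.04 to 1.33). Cortical excitatory-like nuclei were lower, at 141 CPM (130 to 154, 362 nuclei).

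The background for Slc17a6 in this library was high. Endothelial-like nuclei held 55.6 CPM (46.3 to 66.2), choroid plexus-like nuclei 37.2 CPM and forebrain GABAergic-like nuclei 36.0 CPM (31.3 to 41.1). The fibroblast or mesenchyme-like and the microglia or macrophage-like classes held 71.5 and 83.7 CPM. Radial glia-like nuclei, the stem cells of the embryonic brain wall, held 57.3 CPM (50.1 to 65.2), which was 1.03 times the endothelial-like level (0.83 to 1.29). The 78 radial glia-like nuclei with Slc17a6 had a median depth of 16073 UMIs, against 3774 in those without, and at most 19 Slc17a6 UMIs. In endothelial-like nuclei these depths were 17231 and 6409. The source of the radial glia-like UMIs was not tested. Intermediate progenitor-like nuclei, the dividing daughter cells of radial glia, stood 3.97 times above radial glia-like nuclei (3.36 to 4.70). Cortical excitatory-like nuclei stood 2.55 times above endothelial-like nuclei (2.09 to 3.12). They were nearer to microglia or macrophage-like nuclei, at 141 CPM (130 to 154) against 83.7 CPM (68.3 to 102).

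The share of nuclei with Slc17a6 was also highest in the hypothalamic or subthalamic-like class. It was 73.0% (68.3% to 77.4%) in hypothalamic or subthalamic-like, 59.1% (50.9% to 66.9%) in intermediate progenitor-like, 57.0% (52.5% to 61.3%) in thalamic-like, 44.5% (39.3% to 49.8%) in cortical excitatory-like and 43.9% (38.7% to 49.1%) in Cajal-Retzius-like nuclei. Endothelial-like nuclei, with a median of 8401 UMIs against 4090 to 6678 in these classes, showed it in 24.9% (18.5% to 32.1%). After thinning to 1000 UMIs the expected shares were 23.0%, 21.8%, 19.5%, 11.9% and 18.4% in the order above and 4.0% in endothelial-like nuclei. The highest count in a nucleus of the library was 59, in the fibroblast or mesenchyme-like class, and the highest in the hypothalamic or subthalamic-like class was 46.

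Outside these classes, the 120 nuclei picked by a list with Ebf1 and Isl1 held 125 CPM of Slc17a6 (103 to 151). This interval overlaps that of cortical excitatory-like nuclei (130 to 154). That list was meant for striatal neurons, but the leading genes of the class were Hapln1, Matn1, Col9a1 and Col2a1, which are genes of cartilage, and the class is left without a cell type name. The 72 nuclei of the GABAergic list without Dlx genes held 57.8 CPM, the cholinergic-like class 63.8 CPM and the monoaminergic-like class 69.4 CPM. These levels lay between the endothelial-like 55.6 CPM and the fibroblast or mesenchyme-like 71.5 CPM. In the latter class 59 of 194 UMIs lay in 1 nucleus. Thinned to 1000 UMIs, the expected shares were 5.17% in cholinergic-like and 4.79% in monoaminergic-like nuclei, above the endothelial-like share. The GABAergic list without Dlx genes gave a lower share than endothelial-like nuclei. Fibroblast or mesenchyme-like nuclei stood at 2.74% and microglia or macrophage-like nuclei at 6.80%. Of the small classes, 16 nuclei of the habenular or tectal list held 24 Slc17a6 UMIs and 4 nuclei of the midbrain or hindbrain list 1. The 4462 nuclei of no class held 117 CPM, and 37.2% of all Slc17a6 UMIs.

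**Figure D2:**
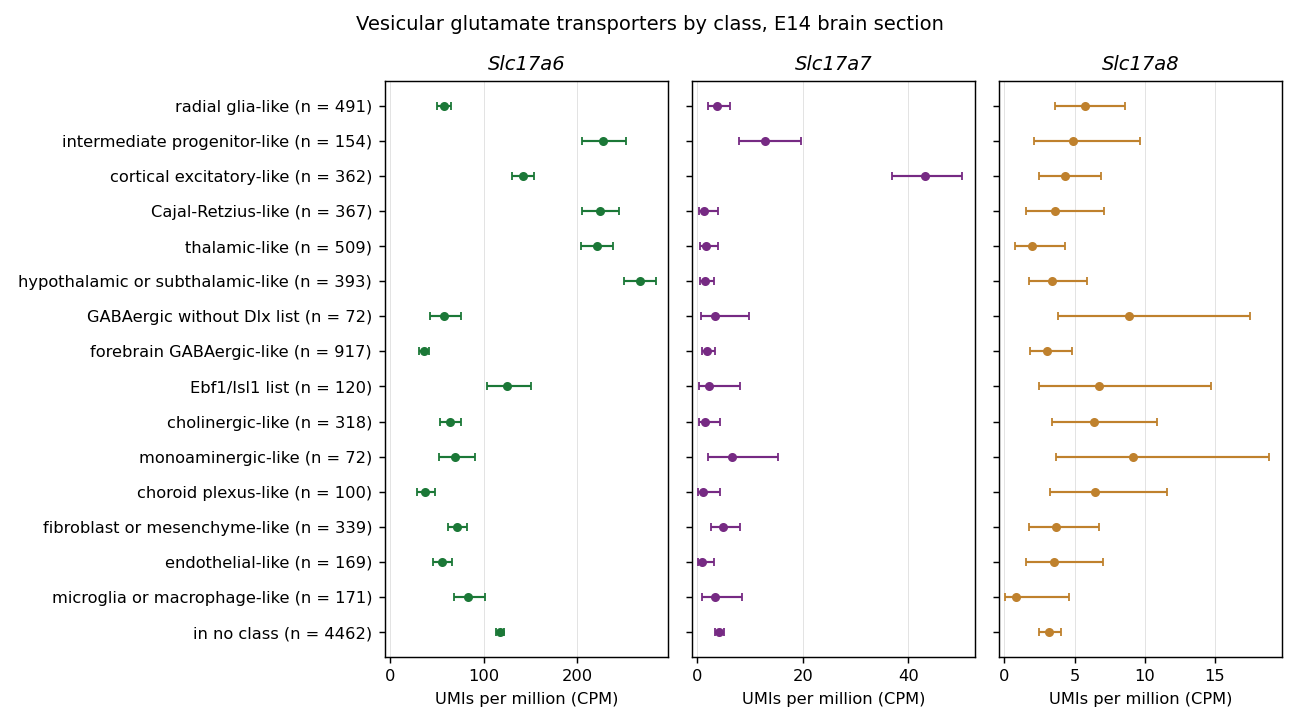
Level of each transporter in CPM (x axis, a separate linear scale per gene) in each E14 class of at least 20 nuclei and in the nuclei of no class. Points are values over the summed UMIs of a class and bars are exact 95% Poisson intervals. Slc17a7 stood at 43.2 CPM in cortical excitatory-like nuclei and 12.9 CPM in intermediate progenitor-like nuclei, while Slc17a8 stayed under 10 CPM in every row.

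Among the E14 classes Slc17a7 was found mainly in the cortical lineage. Cortical excitatory-like nuclei held 171 of its 356 UMIs, 43.2 CPM (37.0 to 50.2), with at least 1 UMI in 35.1% (30.2% to 40.2%) of nuclei. This was 26.0 times the thalamic-like level (10.9 to 81.0) and 23.2 times the forebrain GABAergic-like level (12.6 to 47.3). Intermediate progenitor-like nuclei held 12.9 CPM (7.96 to 19.7), 3.44 times the radial glia-like level (1.69 to 7.18), while cortical excitatory-like nuclei were a further 3.36 times higher (2.13 to 5.57). Thalamic-like, hypothalamic or subthalamic-like and Cajal-Retzius-like nuclei held 1.66, 1.40 and 1.35 CPM, or 5, 5 and 3 UMIs. Endothelial-like nuclei held 0.889 CPM. The 4462 nuclei of no class held 91 Slc17a7 UMIs, 25.6% of the total, at 4.15 CPM (3.34 to 5.10). The list used for the class held neither transporter.

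Some cortical excitatory-like nuclei held both transporters. Of 362 nuclei, 62 had both (17.1%, 13.4% to 21.4%), 99 had Slc17a6 alone, 65 Slc17a7 alone and 136 neither. Slc17a7 was found in 38.5% (31.0% to 46.5%) of nuclei with Slc17a6 and 32.3% (25.9% to 39.3%) of those without. Among the 181 nuclei deeper than the class median these shares were 46.4% (36.8% to 56.1%) and 46.5% (34.5% to 58.7%). Among the 181 others they were 21.6% (11.3% to 35.3%) and 24.6% (17.5% to 32.9%). The intervals overlapped widely in both sets. In the deeper set the median depth was 15074 UMIs with Slc17a6 and 9083 without, so depth was not matched there. In the other set it was 4222 and 4127.5 UMIs. Among classes that should lack both genes, 2 of 169 endothelial-like nuclei (1.18%, 0.144% to 4.21%) and 3 of 917 forebrain GABAergic-like nuclei (0.327%, 0.0675% to 0.953%) held both, at median depths of 8401 and 3830 UMIs against 6678.5 UMIs in the cortical excitatory-like class. Slc17a6, with or without Slc17a7, was found in 24.9% of endothelial-like nuclei, and the part of free RNA in the co-detection was not tested. In intermediate progenitor-like nuclei 15 of 154 had both, and 1 of 367 Cajal-Retzius-like, 3 of 509 thalamic-like and 4 of 393 hypothalamic or subthalamic-like nuclei did.

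**Figure D3:**
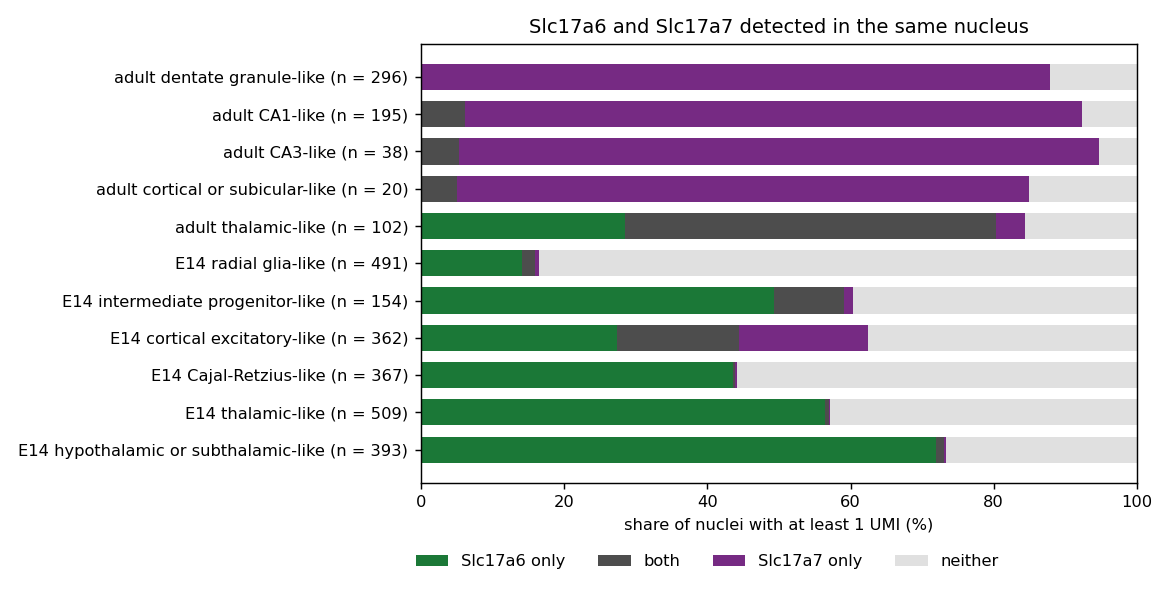
Share of nuclei in percent (x axis) with at least 1 UMI of Slc17a6 alone, of both genes, of Slc17a7 alone or of neither, as stacked bars for each excitatory or progenitor class, adult above and E14 below, without thinning. The adult thalamic-like bar has 52.0% of nuclei with both and the E14 cortical excitatory-like bar 17.1%, against 0.0% to 6.15% in the adult hippocampal and cortical bars.

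Slc17a8 reached at most 9.17 CPM in any E14 class of 20 nuclei or more (monoaminergic-like, 3.69 to 18.9), with 7 UMIs in 3 of 72 nuclei. Over the library, 181 of 9036 nuclei had it, 151 of them with 1 UMI, and the highest count was 6. Endothelial-like nuclei held 3.56 CPM (1.54 to 7.01), inside the range of the neuronal classes, so no E14 class was read as having Slc17a8 at this depth.

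Slc17a6 was also taken as a share of the Slc17a6 and Slc17a7 UMIs of each class in both libraries. This share compares classes only, because the genes differ in length. In adult dentate granule-like, CA3-like, cortical or subicular-like and CA1-like nuclei it was 0.0%, 0.709%, 0.917% and 1.81%, with upper bounds of 0.370% to 5.01%. Adult thalamic-like nuclei stood at 79.1% (75.8% to 82.3%). At E14 the share was 99.5% in hypothalamic or subthalamic-like, 99.4% in Cajal-Retzius-like, 99.3% in thalamic-like, 94.6% (91.9% to 96.7%) in intermediate progenitor-like and 76.6% (73.4% to 79.6%) in cortical excitatory-like nuclei. Classes that should lack both genes also differed between the libraries. At E14 endothelial-like nuclei stood at 98.4% (94.4% to 99.8%) and forebrain GABAergic-like nuclei at 95.1% (91.3% to 97.5%). Adult oligodendrocyte-like nuclei stood at 14.3% (5.94% to 27.2%) and astrocyte-like nuclei at 7.0% (2.86% to 13.9%). The part of free RNA in the shares was not tested.

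**Figure D4:**
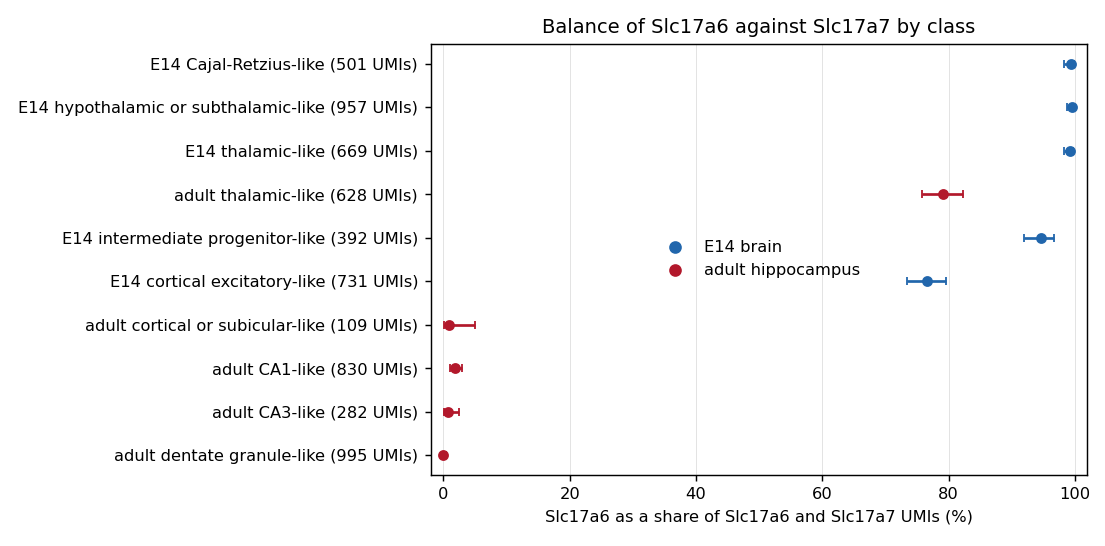
Slc17a6 as a percentage of the UMIs of Slc17a6 and Slc17a7 together (x axis) in each excitatory or progenitor class except radial glia-like nuclei, with the number of UMIs behind each point. Bars are exact 95% Clopper-Pearson intervals, blue for E14 and red for the adult. Adult hippocampal and cortical classes lie at 1.81% or less, and the adult thalamic-like class at 79.1%. Classes that should lack both genes are not shown.

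Between the libraries, cortical nuclei differed in both genes. Slc17a7 stood at 324 CPM in adult cortical or subicular-like and 43.2 CPM in E14 cortical excitatory-like nuclei, 7.50 times higher in the adult (5.84 to 9.60). Slc17a6 stood at 3.00 CPM, from 1 UMI, against 141 CPM, which is 47.1 times higher at E14 (8.42 to 1865). Of all genes with at least 20 UMIs over these classes 11.5% were at least 4-fold apart, and both transporters were among them. Slc17a8 had too few UMIs to be compared. Endothelial-like nuclei, which should lack both genes, also differed. They held 55.6 CPM of Slc17a6 at E14 and 2.28 CPM in the adult, and 0.889 and 47.8 CPM of Slc17a7. The part of this in the cortical differences was not tested.

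In thalamic-like nuclei the larger difference was in Slc17a7. Slc17a7 was at 1.66 CPM, from 5 UMIs, at E14 and at 91.0 CPM in the adult, 54.7 times higher (22.8 to 171). Slc17a6 was 1.56 times higher in the adult (1.39 to 1.76) and not 4-fold apart. Of all genes compared 16.1% were. The levels of Slc17a7 in the classes that should lack it also differed between the libraries, from 0.889 CPM in E14 to 47.8 CPM in adult endothelial-like nuclei, and the part of this in the thalamic-like difference was not tested.

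The genes of the surrounding machinery were read in the adult thalamic-like class against the dentate granule-like, CA1-like and CA3-like classes. Of 38 genes in 6 lists, 29 had enough UMIs, and 7 were at least 4-fold apart from 1 or more of the 3 classes, 3 higher and 4 lower in thalamic-like nuclei. The share over all genes was 18.9%. Among the 9 genes that supply glutamate and glutamine, Slc38a1, a glutamine transporter, was at 159 CPM in thalamic-like and 29.8 CPM in CA1-like nuclei, 5.33 times higher (4.19 to 6.84). The 5 genes of vesicle acidification and chloride transport and the 6 other SLC17 genes, of which 1 had enough UMIs, gave none.

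Synaptic vesicle protein genes gave 3 of 9. Sv2b, a vesicle glycoprotein gene, held 421 UMIs or 292 CPM in thalamic-like nuclei and 2 UMIs in dentate granule-like nuclei, a ratio of 596 (164 to 4941), while CA1-like and CA3-like nuclei held 289 and 440 CPM. Its paralog Sv2c was at 88.5 CPM in dentate granule-like nuclei and at 2.08 CPM, from 3 UMIs, in thalamic-like nuclei, 42.5 times lower (14.4 to 207). Syn2, which encodes a synapsin that tethers vesicles, was at 930 CPM in CA3-like and 232 CPM in thalamic-like nuclei, a ratio of 4.01 (3.51 to 4.59).

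Of the 4 plasma membrane uptake genes, Slc1a6 was 4.05 times higher in thalamic-like than in CA3-like nuclei (1.60 to 13.1). Slc1a3, the glial transporter GLAST, was 4.42 times higher in dentate granule-like than in thalamic-like nuclei (2.61 to 8.06), at 46.1 against 10.4 CPM, beside 2473 CPM in astrocyte-like nuclei. Of the 5 other vesicular transporters, Slc18b1, a polyamine transporter, was 5.21 times higher in dentate granule-like than in thalamic-like nuclei (1.93 to 19.7), from 59 and 4 UMIs.

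The genes whose levels were most alike across classes were ranked by Pearson correlation of log2(CPM + 1), leaving out the marker genes. Over the 11 adult classes of 20 nuclei or more, the 5 genes closest to Slc17a6 included Adamts19 (r = 0.93), Vipr2, Gm35696 and Slitrk6 (r = 0.85), which were highest in thalamic-like nuclei. Slc17a7 was closest to Galnt18 (r = 0.92), Chn1, Prkag2, Abi2 and Slc35f3 (r = 0.90). The classes share a library and its free RNA. Over the 6 adult classes of 50 nuclei or more, none of the 5 genes closest to Slc17a6 or to Slc17a7 stayed among the closest 5.

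Over the 15 E14 classes, Slc17a6 was closest to Nrn1 (r = 0.93), Cacna2d1, Igsf21, Dst and Hrk (r = 0.82). Nrn1 encodes neuritin and Cacna2d1 a calcium channel subunit. Slc17a7 was closest to Tiam2 (r = 0.92), Nuak1, Msra, Gm47271 and Chrna7 (r = 0.86), all highest in cortical excitatory-like nuclei. Tiam2 reached 1413 CPM there, and Chrna7, a nicotinic receptor subunit, 184 CPM. For Slc17a8, whose adult level came from 1 nucleus and whose E14 level was not above background, no likeness is given.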

How the data were processed

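The authors sequenced 2 mouse single-nucleus libraries and deposited filtered gene-by-barcode matrices of UMI counts, 1 per library. Per the file headers Cell Ranger 6.1.2 made the adult matrix and 7.0.1 the E14 matrix. Reads were aligned to mm10 with intronic reads counted. CellBender is named in the methods for the embryo, and whether it touched the deposited counts is not given in the sources used here. Nuclei with at least 500 UMIs and at most 5% mitochondrial UMIs were kept.

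For each nucleus and each list of 8 marker genes, a score was the mean over markers of log2 of observed over expected UMIs, with 0.5 added to each. A class needed 2 markers, 3 UMIs, a score of 0.2 and a lead of 0.1 over the next list. These settings, the members and the lists were chosen with earlier results of these data known, and the settings after levels by class had been seen. Doublets were left in, and an alternative dropped the nuclei with the highest Scrublet scores at 0.8% per 1000 nuclei. Thinned shares are exact expectations over all draws of 1000 UMIs without replacement, from nuclei of that depth or more. Ratios of levels have exact conditional binomial intervals at 95%. For counts of genes 4-fold apart, values under 3 UMIs were set to 3, and genes needed 20 UMIs over both classes. Sublists assigned a nucleus to the list with the larger excess over the class. Named genes were the members, genes of the fixed lists at least 4-fold apart, and the 5 most alike genes with at least 50 UMIs, of which 1 is not reported here. A planned split of the E14 cortical excitatory-like class by sublists is not reported here either. With 1 library per tissue no test over samples was run. Counting and ratios were tested on simulated data. Promoter windows came from the RefSeq table (GRCm38.p6), with 2 starts listed for Slc17a6 and Slc17a8 and 1 for Slc17a7, of which the first was used. Python 3.11.15, numpy 2.4.6, scipy 1.17.1, pandas 2.3.3 and scanpy 1.11.5 were used.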

Additional observations from a re-analysis of the deposited data

How the results depend on the processing

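Of 109 values recomputed under the alternatives, 99 stayed within the counting interval of the reported value, or for a count of genes within 1.5 times, and 10 did not. The share of adult thalamic-like nuclei with both Slc17a6 and Slc17a7 was 63.1% with a minimum of 1000 UMIs and 68.7% without nuclei under 1.5% Malat1. Without the likely doublets (22 adult and 653 E14 nuclei), Slc17a6 in E14 intermediate progenitor-like nuclei was 254 CPM and Slc17a7 in E14 cortical excitatory-like nuclei 51.3 CPM. With the oligodendrocyte-like or endothelial-like level subtracted, the Slc17a6 share of both genes' UMIs was 87.3% in adult thalamic-like and 67.0% in E14 cortical excitatory-like nuclei. The adult share depends on the class subtracted. Slc17a7 was at 42.0 CPM in oligodendrocyte-like nuclei. It was at 104, 126 and 139 CPM in astrocyte-like, precursor-like and microglia-like nuclei, all above the thalamic-like 91.0 CPM. Co-detection followed depth by construction. In adult thalamic-like nuclei it was 9.81% at 2000 UMIs and 52.0% without thinning, and in E14 cortical excitatory-like nuclei 1.99% and 17.1%, against 5.32% and 0.592% at 1000 UMIs. A limit of 1% mitochondrial UMIs, 1 more marker per nucleus or a lead of 0.2 over the next class moved none of the 17 values outside its interval. A minimum of 50 UMIs per gene gave 11.8% of genes 4-fold apart between adult and E14 cortical nuclei. No paired analysis was possible because there was 1 library per tissue.

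Depth limits what an absence means: at 1000 UMIs per nucleus Slc17a7 would be expected in 25.3% of CA1-like nuclei, against 92.3% at their own depth. Intervals cover counting error alone, and nothing here measures the spread between animals.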
